A study of Mus musculus with 10 samples.

Results

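Interferon-stimulated genes are the transcripts that cells switch on when they sense interferon, and Cxcl10, the chemokine that draws CXCR3-positive lymphocytes, is among the best known of them. A list of 46 such genes was followed in lung tumours of KP mice and of KPG1 mice, in which Cre can delete both alleles of Slc2a1 (encoding the glucose transporter Glut1) in tumour cells. Each gene was looked up in the deposited count table by its symbol. Of the 46 symbols, 45 were found among 39017 genes and 43 passed the filter on low counts, with Cxcl9 and Cxcl11 falling below it. Ifit3b was not found under that name, because the table carries its Ensembl gene, ENSMUSG00000062488, under the older symbol I830012O16Rik. The list was drawn up with the Control against Glut1-KO contrast known, and the lower Cxcl10 level was part of the reason for it. All differences between the groups are therefore given as descriptions.

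Both groups were C57BL/6 mice that carried the K-rasLSL-G12D/WT allele and p53Fl/Fl, and all received the Ad5CC10-Cre adenovirus into the trachea, which limits Cre to cells in which the CC10 promoter is active. Control tumours (5 libraries) were labelled heterozygous for the floxed Glut1 allele, and Glut1-KO tumours (5 libraries) homozygous. Lungs were taken at 20 weeks and 1 day after initiation, tumours were macrodissected and dissociated, and immune cells were removed with CD45 beads before RNA extraction. All 5 Control libraries were labelled male, whereas Glut1-KO replicates 1 to 3 were female and replicates 4 and 5 male. Control libraries carried only 2 different numbers in their deposited names and Glut1-KO libraries 4. These numbers may stand for mice, although no label says so, and the spread between libraries may then in part be the spread between tumours of the same animal.

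Each library held between 35.3 and 49.8 M counts. The epithelial markers Epcam (352 to 619 CPM), Nkx2-1 (132 to 277 CPM) and Sftpc (6330 to 36600 CPM) were present in all 10 libraries. CPM are read counts scaled to a common library size of 1 M by the TMM method. The deleted gene Slc2a1 measured 118, 86.7, 92.6, 103 and 73.2 CPM in Control replicates 1 to 5, and 60.3, 42.5, 34.6, 92.4 and 103 CPM in Glut1-KO replicates 1 to 5. The libraries labelled Glut1-KO replicates 4 and 5 thus lay within the Control range, and Slc2a1 did not pass the test (log2 fold change -0.62, SE 0.29, limma adjusted p = 0.658). The 3 Glut1-KO libraries with low Slc2a1 were also the 3 female ones, so that Slc2a1 level and sex cannot be told apart within the group.

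Type I interferons signal through the receptor Ifnar to a complex that holds Stat2 and Irf9 and binds a DNA element called ISRE, while interferon gamma signals through Ifngr and acts on an element called GAS. The genes so induced encode sensors of viral RNA, proteins that block viral replication, GTPases that attack vacuoles holding pathogens, and chemokines that recruit lymphocytes. Irf7 amplifies the response, while Usp18 and Socs1 end it. In lung tumours, Cxcl9, Cxcl10 and Cxcl11 are mostly studied for the T cells they attract.

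The promoters of the members were searched for the core letters of these elements. RefSeq windows on GRCm38.p6, from 250 bases before to 50 bases after a start site, were at hand for 34 members (38 windows). The ISRE core (GAAA, any 2 bases, then GAAA), searched on both strands, lay in 21 of the 38 windows (55.3%), against 3.44% of all 32851 windows. The GAS core (TTC, any 3 bases, then GAA), which reads the same on both strands, lay in 11 member windows (28.9%, against 8.30% of all), and the kappa-B core (GGGA, any 2 bases, then TTCC), also searched on both strands, in 5 (13.2%, against 1.47%). Of the 8 GTPases with a window, 7 held an ISRE core and 4 a GAS core, and of the 12 antiviral effectors, 8 and 5 did. The 5 windows shown are those of both chemokines with an entry, and for the antiviral effectors, the GTPases and the modifiers, that of the member with most ISRE cores, with ties (4 other effectors and Gbp3 had as many) settled by the higher level per kb. Capitals mark every match to one of the 3 cores, and matches may overlap.
Cxcl10 (chr5:92348840-92349139, minus strand): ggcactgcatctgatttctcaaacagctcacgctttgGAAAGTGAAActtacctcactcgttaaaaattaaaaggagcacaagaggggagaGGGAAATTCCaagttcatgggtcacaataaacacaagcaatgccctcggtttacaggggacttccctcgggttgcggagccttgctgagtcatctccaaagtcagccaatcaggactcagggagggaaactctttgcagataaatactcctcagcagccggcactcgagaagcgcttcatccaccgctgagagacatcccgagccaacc
Cxcl9 (chr5:92328030-92328329, minus strand): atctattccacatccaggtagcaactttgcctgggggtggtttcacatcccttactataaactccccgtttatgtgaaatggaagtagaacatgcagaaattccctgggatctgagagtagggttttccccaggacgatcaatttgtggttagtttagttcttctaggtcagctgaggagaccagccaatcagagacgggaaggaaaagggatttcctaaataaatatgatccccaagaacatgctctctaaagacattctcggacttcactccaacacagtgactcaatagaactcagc
Isg15 (chr4:156200769-156201068, minus strand): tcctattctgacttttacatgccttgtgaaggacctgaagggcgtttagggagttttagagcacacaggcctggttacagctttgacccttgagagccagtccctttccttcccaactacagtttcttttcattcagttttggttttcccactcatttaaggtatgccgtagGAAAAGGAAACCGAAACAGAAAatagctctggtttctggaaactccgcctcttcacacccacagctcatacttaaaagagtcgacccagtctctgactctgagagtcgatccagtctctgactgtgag
Ifitm3 (chr7:141010695-141010994, minus strand): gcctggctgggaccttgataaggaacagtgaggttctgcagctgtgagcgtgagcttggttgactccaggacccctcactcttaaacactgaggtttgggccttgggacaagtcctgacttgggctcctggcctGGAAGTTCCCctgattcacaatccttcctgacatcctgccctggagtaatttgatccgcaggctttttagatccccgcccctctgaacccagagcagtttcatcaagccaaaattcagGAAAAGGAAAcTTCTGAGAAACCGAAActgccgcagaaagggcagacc
Irgm1 (chr11:48871371-48871670, minus strand): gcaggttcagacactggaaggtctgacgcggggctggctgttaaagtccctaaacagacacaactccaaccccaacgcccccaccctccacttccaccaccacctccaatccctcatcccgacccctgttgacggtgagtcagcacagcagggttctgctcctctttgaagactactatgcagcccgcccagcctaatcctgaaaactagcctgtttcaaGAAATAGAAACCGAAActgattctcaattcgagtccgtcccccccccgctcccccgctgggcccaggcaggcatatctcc
The Cxcl10 window held 1 ISRE core, whose first base lay 213 bases before the start site, and 1 kappa-B core 159 bases before it. The kappa-B core is the element bound by NF-kB. In the Isg15 window 3 ISRE cores overlapped, starting 78, 72 and 66 bases before the start, and the Irgm1 window had 2 that overlapped. The Ifitm3 window held 2 ISRE cores just after the start, a GAS core between them that overlapped the second, and a kappa-B core upstream. The Cxcl9 window held no match to any of the 3, which says only that these letters are not in those 300 bases. A match is a stretch of letters and was not measured as a binding site.

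Cxcl10 (ENSMUSG00000034855, chromosome 5, 92346638 to 92348889, minus strand) was lower in every Glut1-KO library than in any Control library. It measured 10.4, 7.05, 5.16, 9.51 and 6.70 CPM in Control replicates 1 to 5. In Glut1-KO replicates 1 to 5 it measured 2.19, 2.19, 2.00, 1.17 and 3.08 CPM. The highest Glut1-KO library lay below the lowest Control library, and the female and male Glut1-KO libraries had nearly the same mean (2.13 and 2.12 CPM). The male Glut1-KO libraries, replicates 4 and 5, had Slc2a1 levels within the Control range (92.4 and 103 CPM, Control 73.2 to 118 CPM). The lowest Cxcl10 level, 1.17 CPM, was in replicate 4. Group means were 7.77 ± 2.15 and 2.12 ± 0.681 CPM (SD, n = 5 each), a ratio of 3.66, and the fitted log2 fold change was -1.86 (SE 0.29). Of all 15922 genes tested, 0.584% had a more negative fold change. These values rest on 38 to 412 counts per library. In RNA from a mixture of cells, fewer cells that make a transcript and less of it per cell cannot be told apart.

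**Figure D1:**
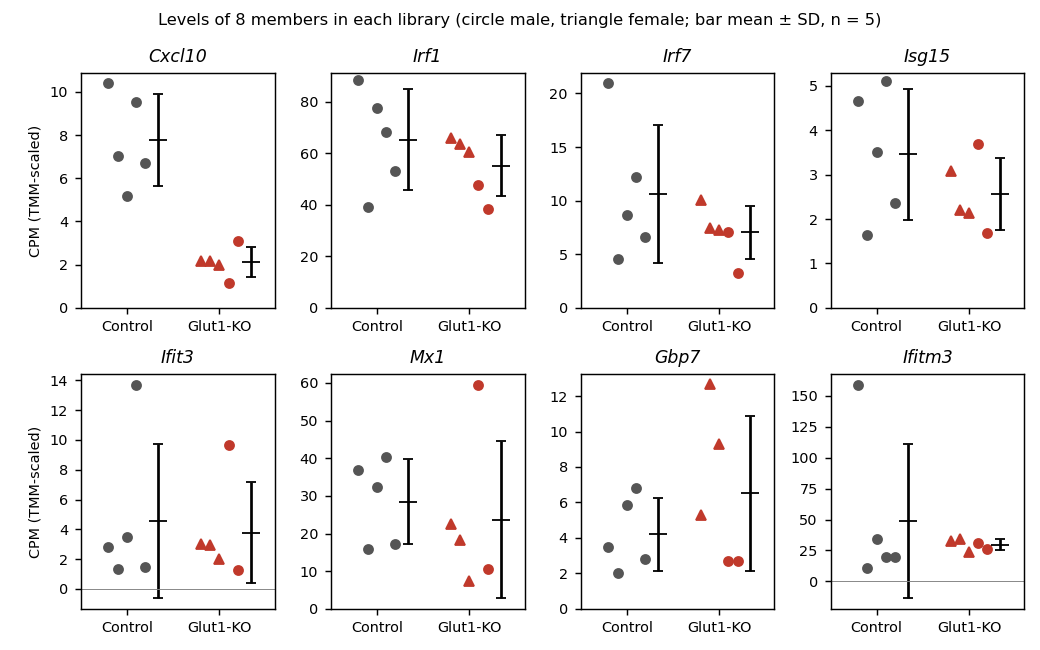
Levels of 8 interferon-stimulated genes in TMM-scaled CPM (vertical axis, linear) in the 5 Control (grey) and 5 Glut1-KO (red) libraries, with the mean ± SD of each group as a bar; circles are male and triangles female. Cxcl10 is separated between groups, with Glut1-KO values of 1.17 to 3.08 CPM below Control values of 5.16 to 10.4 CPM, whereas the groups overlap for the other 7 genes; Isg15, Ifit3 and Mx1 were added to the plot after their values were seen.

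The other chemokines of this cluster were barely detected. Cxcl9, which binds the same receptor, had 66 counts over all 10 libraries, 33 of them in Control replicate 3, where it measured 0.815 CPM. It measured 0.0253, 0.0186, 0.153 and 0 CPM in Control replicates 1, 2, 4 and 5, and 0.0974, 0.166, 0.269, 0.0613 and 0 CPM in Glut1-KO replicates 1 to 5. Cxcl11 had 13 counts in all, between 0 and 0.102 CPM in Control and between 0 and 0.0674 CPM in Glut1-KO libraries. A difference in either was not detectable at these counts. Their receptor Cxcr3 also stayed below the filter.

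The share of members whose groups were separated was close to that of all genes. No member passed the adjusted threshold of 0.05 in limma, nor did any of the 15922 genes (percent called 0), although 1223 genes had an unadjusted p under 0.05. Cxcl10 was the single member whose groups did not overlap. Among all genes 1.06% were lower and 0.798% higher in Glut1-KO without overlap (1.85% in either direction). DESeq2, run on the same genes, called 110 genes higher (0.691%) and 105 lower (0.659%), or 1.35% in either direction, with Cxcl10 the single member among them, and the edgeR quasi-likelihood test called 0 genes, so that the call depends on the tool. Estimates of the 43 members were higher in Glut1-KO for 21 and lower for 22, with a median log2 fold change of -0.02 against -0.00 over all genes. The estimate was within 1 SE of 0 for 34 of the 43 members, against 59.3% of all genes, and within 2 SE for 41, against 89.6%. The exceptions to the latter were Cxcl10 and Oasl1.

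**Figure D2:**
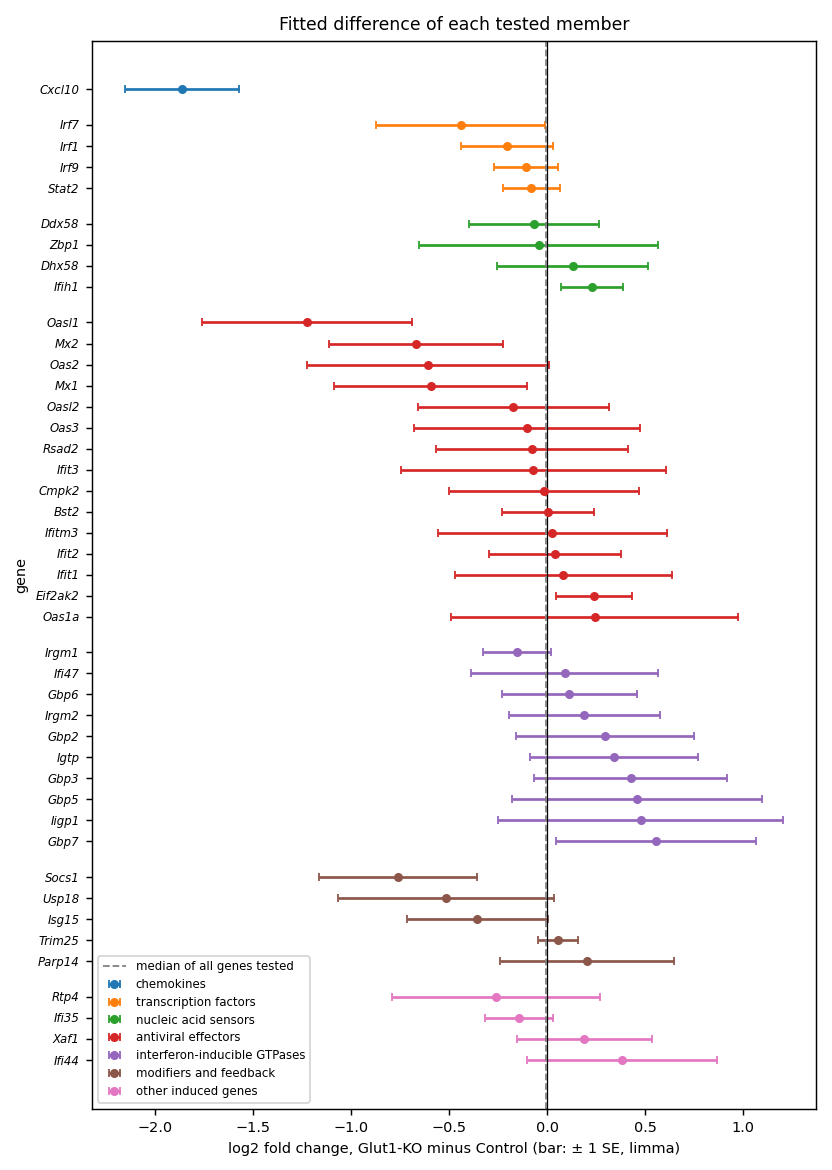
Fitted log2 fold change of the 43 tested members (horizontal axis, Glut1-KO minus Control; bars ± 1 SE from limma), grouped and coloured by role, with the median of all genes tested as a dashed line near 0. Cxcl10 at -1.86 is the most negative, and 9 of the 10 GTPases lie above 0, whereas with sex as a covariate all 10 were below 0.

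The transcription factors that drive the response had overlapping levels in both groups. Irf1, which interferon gamma induces, measured 88.5, 39.0, 77.5, 68.1 and 53.2 CPM in Control and 65.8, 63.7, 60.4, 47.6 and 38.4 CPM in Glut1-KO replicates 1 to 5 (log2 fold change -0.21, SE 0.23). Irf7, which amplifies the type I response, measured 21.0, 4.55, 8.69, 12.2 and 6.61 CPM in Control and 10.1, 7.46, 7.28, 7.09 and 3.26 CPM in Glut1-KO libraries (-0.44, SE 0.43). For both, all but the lowest Glut1-KO library lay within the Control range. Irf9, the DNA-binding partner of Stat2, measured 44.3, 34.3, 41.3, 46.5 and 39.3 CPM against 39.6, 45.6, 46.8, 33.6 and 27.1 CPM (-0.11, SE 0.16). Stat2 measured 34.2, 31.4, 28.0, 38.5 and 24.7 CPM against 29.2, 29.9, 24.5, 29.0 and 34.8 CPM (-0.08, SE 0.15). The 4 estimates were all negative and each was smaller than or close to its SE. With sex as a covariate their median went from -0.16 to -0.50, and Stat2 turned to 0.04. Stat2 was the steadiest of the 4, with a 1.57-fold range over the 10 libraries, and Irf7 the least steady, with a 6.45-fold range.

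Sensors of viral nucleic acid were present throughout, with 2 estimates higher and 2 lower in Glut1-KO (median 0.04). All 4 were lower with sex as a covariate (median -0.43). Ddx58 (RIG-I), which detects viral RNA ends, measured 52.4, 17.1, 48.7, 48.7 and 34.5 CPM in Control and 48.2, 43, 31.5, 40.2 and 21.2 CPM in Glut1-KO libraries (log2 fold change -0.07, SE 0.33). Control replicate 2 and Glut1-KO replicate 5 were the lowest of their groups. Ifih1 (MDA5), a sensor of long double-stranded RNA, measured 36.9, 34.4, 37.0, 40.4 and 39.1 CPM against 45.9, 48.3, 58.1, 41.1 and 30.8 CPM (0.23, SE 0.16). Its Glut1-KO replicates 1 to 4 lay above all Control libraries and the other below all of them, and its estimate turned to -0.09 with sex as a covariate. Dhx58 (LGP2), the regulator of both sensors, measured 6.53, 3.56, 6.32, 5.90 and 3.74 CPM against 5.75, 7.16, 8.89, 6.53 and 2.06 CPM (0.13, SE 0.39), and Zbp1, a sensor of Z-form nucleic acid, differed by -0.04 (SE 0.61).

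Of the 15 antiviral effectors tested, 6 estimates were higher and 9 lower in Glut1-KO, with a median of -0.07. These counts were 3 and 12, with a median of -0.60, with sex as a covariate. Ifitm3, which blocks virus entry at endosomes, had the highest level per kilobase of transcript of all members (57.8 CPM per kb). It measured 159, 10.6, 34.5, 19.4 and 20.1 CPM in Control and 32.5, 34.3, 24.1, 31.0 and 26.6 CPM in Glut1-KO libraries. Control replicate 1 alone set the Control mean of 48.7 ± 62.3 CPM (SD, n = 5), and the Glut1-KO libraries lay close together at 29.7 ± 4.24 CPM, with a fitted difference of 0.03 (SE 0.58). Bst2 (tetherin), which holds virions at the cell surface, measured 23.9, 11.5, 20.3, 19.6 and 13.2 CPM against 23.1, 12.8, 15.6, 15.3 and 19.2 CPM (0.00, SE 0.24). Oasl1, which in mice limits translation of Irf7, had the lowest estimate of the effectors. It measured 12.7, 3.01, 3.21, 4.63 and 1.66 CPM against 2.65, 1.36, 0.876, 2.76 and 1.52 CPM (-1.23, SE 0.54), and the groups overlapped. Mx2, of the dynamin-like Mx family, is annotated as a polymorphic pseudogene in the mouse genome used here (GENCODE M21), as is Cxcl11. It measured 1.42, 0.594, 1.73, 1.91 and 0.555 CPM against 0.755, 1.02, 0.696, 0.705 and 0.362 CPM (-0.67, SE 0.45). Here 3 Control libraries lay above all Glut1-KO libraries and the other 2 below all but 1 of them. The other effectors, among them Ifit1, Ifit2 and Ifit3, which bind viral RNA or the translation machinery, Rsad2 (viperin) and the RNA-dependent kinase Eif2ak2 (PKR), had estimates between -0.61 (Oas2) and 0.24 (Oas1a).

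Near-identical gene copies limit what counts can tell about some members. Ifit3 and Ifit3b are close copies, as are genes of the Oas1 and Gbp families, and reads that fit several copies could have been split or dropped in counting. The row of Ifit3b, found by its identifier after the values were seen, had 25 to 140 counts per library. It measured 1.49, 0.575, 0.692, 3.56 and 0.747 CPM in Control and 2.41, 0.880, 2.00, 3.31 and 0.566 CPM in Glut1-KO libraries, with its highest values in Control replicate 4 and Glut1-KO replicate 4. Ifit3 was highest in the same libraries.

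Interferon-inducible GTPases, which disrupt the vacuoles of intracellular pathogens and are driven mainly by interferon gamma, had mostly higher estimates in Glut1-KO. This was so for 9 of the 10, with a median of 0.32, but 0 passed the test and the groups overlapped for all 10. With sex as a covariate all 10 estimates were lower, with a median of -0.47. As no Control library was female, that fit compares Glut1-KO replicates 4 and 5 alone with Control, and these share a name number and a Slc2a1 level in the Control range. Ifi47 measured 20.3, 4.73, 23.5, 24.7 and 17.1 CPM in Control and 24.8, 20.7, 15.3, 17.7 and 7.86 CPM in Glut1-KO libraries (0.09, SE 0.48). Irgm1, which regulates the other immunity-related GTPases, measured 36.0, 23.7, 34.6, 37.4 and 32.6 CPM against 33.5, 32.3, 32.1, 28.3 and 20.8 CPM (-0.15, SE 0.17) and was the exception in direction. Gbp7, a guanylate-binding protein, had the highest estimate of all members with the group as the only term, and turned to -0.46 with sex as a covariate. It measured 3.49, 2.00, 5.88, 6.79 and 2.82 CPM against 5.28, 12.7, 9.27, 2.67 and 2.72 CPM (0.56, SE 0.51). Glut1-KO replicates 2 and 3 were above every Control library, and replicates 4 and 5 below all but 1 of them. Iigp1 (Irga6) was likewise highest in Glut1-KO replicates 2 and 3 of its group, with 6.23, 2.06, 16.4, 10.1 and 2.85 CPM in Control and 8.57, 17.9, 14.3, 7.39 and 1.65 CPM in Glut1-KO libraries (0.48, SE 0.73).

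The modifiers and feedback genes were lower by estimate in 3 of 5 cases, and in all 5 with sex as a covariate (median -0.36). Trim25, the ubiquitin ligase that activates RIG-I, was the steadiest of all members. It measured 113, 112, 108, 106 and 103 CPM in Control and 109, 127, 129, 98.1 and 104 CPM in Glut1-KO libraries, a 1.31-fold range over the 10 libraries (log2 fold change 0.05, SE 0.10). Usp18, which removes Isg15 from proteins and blocks Ifnar2, measured 9.06, 1.39, 6.87, 7.2 and 8.25 CPM against 4.38, 3.64, 2.29, 7.48 and 2.72 CPM (-0.52, SE 0.55). All but 1 of its Glut1-KO libraries lay below 4 of the Control libraries, but Control replicate 2 was the lowest of all. Socs1, the inhibitor of Jak kinases, measured 0.911, 1.28, 2.17, 1.02 and 1.47 CPM against 0.925, 0.903, 1.59, 0.460 and 0.408 CPM (-0.76, SE 0.40), on 474 counts in all. Parp14, an ADP-ribosyltransferase, measured 64.6, 17.6, 62.0, 49.9 and 31.9 CPM against 54.4, 62.2, 71.5, 50.5 and 17.5 CPM (0.20, SE 0.44), and the ubiquitin-like modifier Isg15 differed by -0.36 (SE 0.36).

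The remaining induced genes had estimates between -0.26 and 0.38, and all 4 were lower with sex as a covariate (median -0.32). Ifi35 measured 20.3, 11.7, 20.2, 19.6 and 17.3 CPM in Control and 16, 15.7, 17.3, 14.8 and 14.3 CPM in Glut1-KO libraries (-0.14, SE 0.17). Xaf1, a pro-apoptotic gene that antagonizes XIAP, measured 12.8, 5.01, 12.9, 12.1 and 7.98 CPM against 12.6, 13.9, 14.5, 9.26 and 5.59 CPM (0.19, SE 0.34). Both had Control replicate 2 and Glut1-KO replicate 5 as the lowest library of their group. Ifi44 measured 3.29, 0.742, 2.99, 3.08 and 1.28 CPM against 3.53, 4.26, 2.29, 2.27 and 1.25 CPM (0.38, SE 0.48), and Rtp4, a receptor chaperone, measured 5.80, 1.30, 5.61, 4.55 and 2.12 CPM against 3.70, 3.83, 3.95, 2.79 and 0.928 CPM (-0.26, SE 0.53).

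The members varied widely between libraries of the same group. Over the 10 libraries 33 of the 43 members (76.7%) ranged more than 3-fold, against 35.2% of all genes tested. The range within Control was larger than the difference of the group means for 42 members, which holds for 96.2% of all genes, and Cxcl10 was the exception. Control replicate 2 was the lowest library for 17 members and Glut1-KO replicate 5 for 19, and both together were the 2 lowest for 23 of the 43. Relative to the mean of each gene, the median member was at -0.87 in Control replicate 2 and -0.85 in Glut1-KO replicate 5 on the log2 scale. The highest median, 0.59, was in Control replicate 4. Control replicate 2 also had the largest total (49.8 M counts). Control replicate 5 was below the mean of the gene for 35 members, as Control replicate 2 was for 36 and Glut1-KO replicate 5 for 41, but by less (median -0.36).

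**Figure D3:**
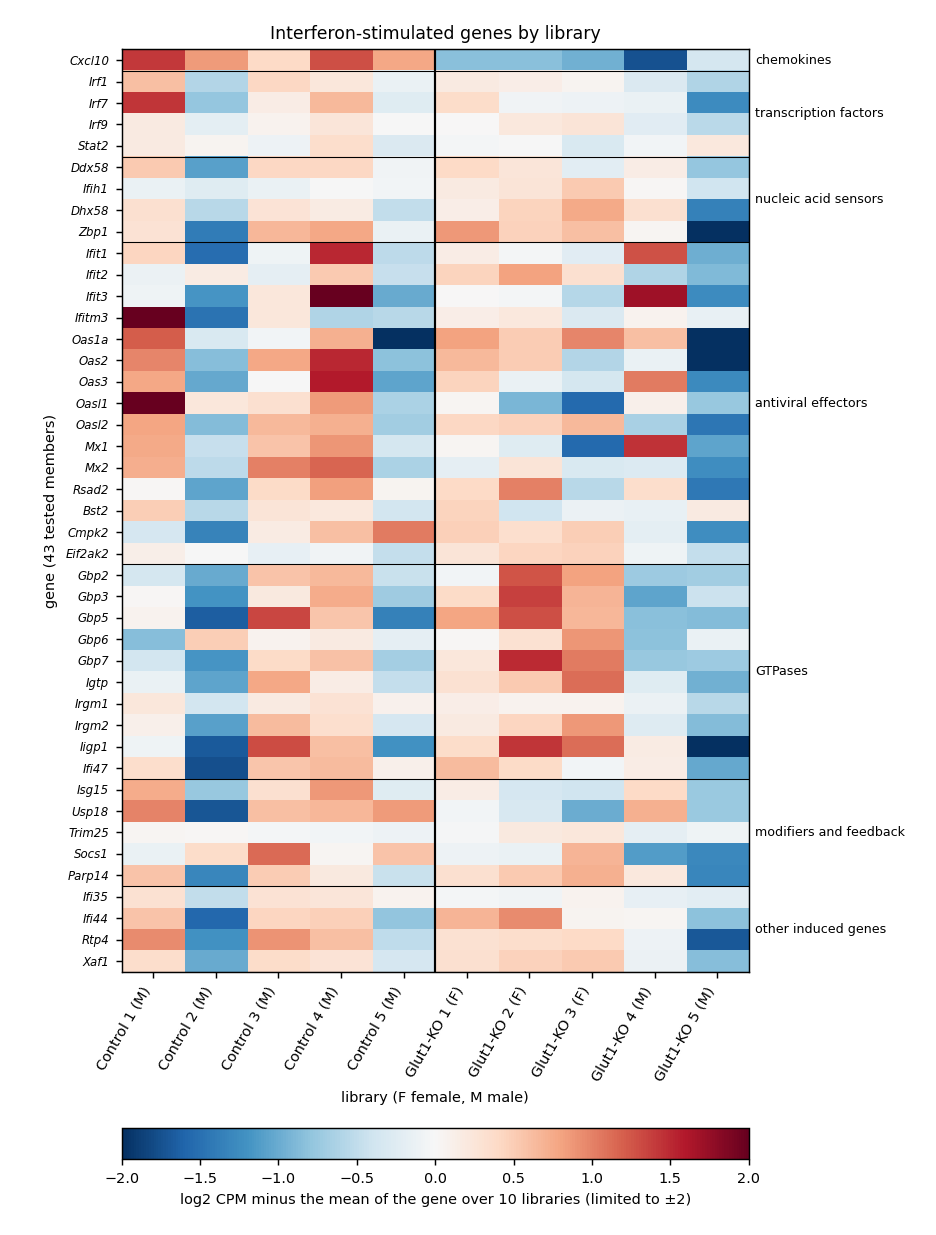
Heat map of the 43 tested members (rows, by role) in the 10 libraries (columns), with colour giving log2 CPM minus the mean of that gene over all libraries, limited to ±2. Control replicate 2 and Glut1-KO replicate 5 are blue for most rows (median -0.87 and -0.85), and Cxcl10 in the top row is the one member that splits at the line between the groups.

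Within a group, the members moved together, though not as a single block. After the mean of each group was taken off, Pearson's r over the 10 libraries had a median of 0.59 over all 903 pairs of members. These correlations describe the libraries, and share their depth and cell makeup. They also keep the split between female and male Glut1-KO libraries given below, and no such median is given here for pairs of all genes. Pairs of GTPases had a median r of 0.80, with Gbp2 and Gbp7 at 0.99 and Igtp and Irgm2 at 0.98, while pairs of antiviral effectors had a median of 0.52. The annotated spans of Igtp and Irgm2 overlap on the same strand, and Gbp2 and Gbp7 belong to a family of close copies. The counts within each of these pairs may therefore not be independent. Ifit1 and Ifit3 had an r of 0.95, whereas Mx1 and Gbp2 had an r of -0.05 (these pairs were chosen after the values were seen). Mx1 was highest in Glut1-KO replicate 4 (59.5 CPM), where Ifit3 was also high (9.69 CPM), and the median GTPase was there at -0.49 on the log2 scale. Conversely, Glut1-KO replicate 3 had the median GTPase at 0.83 and the median antiviral effector at -0.30.

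Cxcl10 was among a few members that did not follow the others. Its median r with the other 42 was -0.08, and it was negative with 24 of them. Stat2 (median r -0.04, negative with 24) and Gbp6 (-0.03, negative with 22) were nearly the same. The 3 members most like it were Stat2 (r = 0.60), Gbp3 (0.36) and Bst2 (0.35), and the 3 least like it were Mx1 (-0.39), Dhx58 (-0.34) and Socs1 (-0.29). With 10 libraries, values of this size are weak and are given as a description. Glut1-KO replicate 5, the library with the lowest level of 19 members, had the highest Cxcl10 level of its group (3.08 CPM). Control replicate 2, low for most members, had 7.05 CPM of Cxcl10, the middle value of its group.

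**Figure D4:**
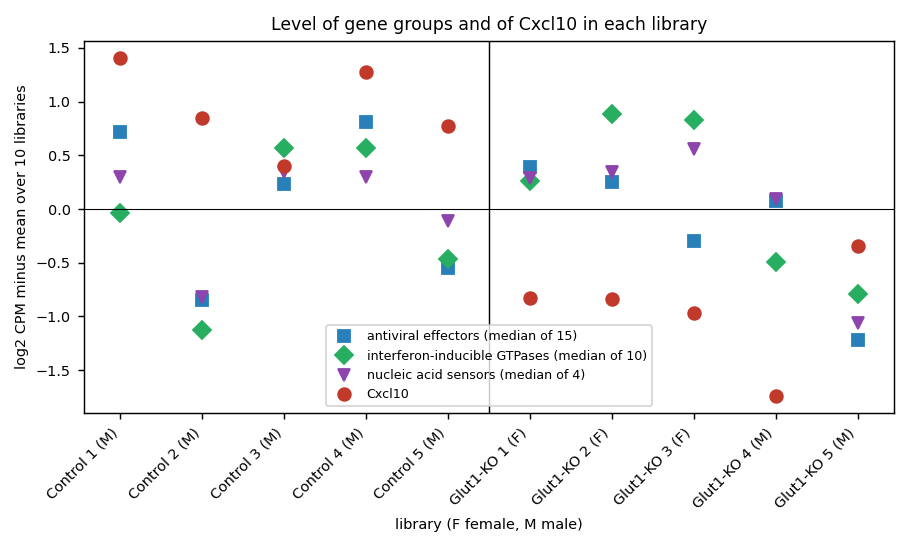
Level in each library of Cxcl10 and of the median antiviral effector, GTPase and nucleic acid sensor, as log2 CPM minus the mean of each gene over the 10 libraries (vertical axis). Cxcl10 is above 0 in all Control and below 0 in all Glut1-KO libraries, whereas the 3 group medians fall below -0.7 in Control replicate 2 and Glut1-KO replicate 5 alike.

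Within Glut1-KO, the female libraries were higher than the male ones for many members. In 25 of the 43 members all 3 female Glut1-KO libraries lay above both male ones, and in 0 below. Of all genes tested, 20.6% lay above and 20.3% below without overlap. This split held for 9 of the 10 GTPases and for all 4 of the other induced genes, but for only 4 of the 15 antiviral effectors. The median member was 0.20 higher than the Control mean in the female and 0.46 lower in the male Glut1-KO libraries, on the log2 scale, and for GTPases these values were 0.79 higher and 0.49 lower. Against Control, 4 members (Cxcl10, Irf9, Ifit2 and Socs1) were lower without overlap in the 2 male Glut1-KO libraries (8.57% of all genes were), and 2 (Ifih1 and Eif2ak2) were higher without overlap in the 3 female ones (4.16% of all genes were). Sex, Slc2a1 level and the number in the library name cannot be told apart here, since the 2 male Glut1-KO libraries share a name number and Slc2a1 levels of the Control range. Summed levels of 16 genes that respond to tissue dissociation split in the same way, with 6470, 6990 and 7270 CPM in the female and 4990 and 4480 CPM in the male Glut1-KO libraries. Over the 10 libraries, after group means were taken off, this sum had an r of 0.63 with the median member and 0.79 with the median GTPase, and its part in the levels was not tested. In the fit with sex as a covariate, whose group term rests on the 2 male Glut1-KO libraries alone, 21 of the 43 members had an estimate of the other sign, and 4 were higher and 39 lower in Glut1-KO. The 2 male Glut1-KO libraries were not alike for all members, as Ifit3 measured 9.69 CPM in one and 1.25 CPM in the other.

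Markers of some other cells moved with these levels. All 10 pan-leukocyte genes were higher by estimate in Glut1-KO, with a median of 0.62 and Ptprc, the gene of CD45, at 1.47 (SE 0.25). Of these, 3 had groups that did not overlap (0.798% of all genes were higher in this way), and 0 passed the test. The summed level ran from 326 to 475 CPM in Control and from 338 to 619 CPM in Glut1-KO libraries. Control replicate 2 (326 CPM) and Glut1-KO replicate 5 (338 CPM) had the lowest sums of their groups, but the sum was mostly Lcp1 (277 and 299 CPM there), an actin-bundling gene that tumour cells can also express. Without Lcp1 the sum of the other 9 ran from 34.8 to 78.4 CPM in Control and from 39.4 to 98.0 CPM in Glut1-KO libraries, with the lowest Control value in replicate 5. Over the 10 libraries, after group means were taken off, the median member had an r of 0.72 with the sum of all 10 genes, 0.74 without Lcp1, 0.73 with the macrophage sum and 0.71 with the alveolar type 2 sum. The macrophage sum (1130 to 11500 CPM in Control, 2240 to 8090 CPM in Glut1-KO) is mostly Lyz2 (-0.70, SE 0.63), which alveolar type 2 cells also express. Without Lyz2 it ran from 149 to 355 CPM in Control and from 215 to 323 CPM in Glut1-KO libraries, and its r with the median member was 0.40, but it was then mostly Cd14 (80.6 to 307 CPM in Control, 125 to 221 CPM in Glut1-KO, estimate 0.09 with SE 0.31). Of the 10 macrophage genes tested, 8 had higher estimates in Glut1-KO (median 0.84), among them Csf1r (0.88, SE 0.28) and C1qb (0.99, SE 0.29). Lyz2 and Mrc1 (-0.26, SE 0.51) had lower ones, and 0 passed the test. C1qa and Fcgr1 were higher without overlap (0.798% of all genes were). All 10 endothelial genes were higher by estimate, with sums of 120 to 470 CPM in Control and 189 to 622 CPM in Glut1-KO libraries. Of these genes, 0 passed the test and all had overlapping groups. Estimates of airway genes mostly went the other way, but 0 passed the test and the groups overlapped for each. The ciliated sum was 258 CPM in Control replicate 5 and at most 96.5 CPM in the other Control libraries. All 7 ciliated cell genes had lower estimates in Glut1-KO (median -0.72, Foxj1 -2.23 with SE 1.03) and 4 of 5 club cell genes did (median -0.67), and the club cell sum (2000 to 11500 CPM in Control, 2940 to 8820 CPM in Glut1-KO) had an r of 0.66 with the median member. T and NK cell genes had very low levels, with 8 of 10 below the filter and sums of 1.43 to 1.88 CPM in Control and 1.32 to 1.78 CPM in Glut1-KO libraries. Their genes did not go one way, as the 2 tested, Cd4 and Trac, had lower estimates (-0.77, SE 0.41, and -0.75, SE 0.38), whereas Gzmb, below the filter, was higher without overlap on 6 counts in Control and 45 in Glut1-KO libraries. The r with the median member was 0.62 for the endothelial, 0.54 for the alveolar type 1, 0.43 for the ciliated, 0.39 for the dendritic, 0.36 for the T and NK, 0.04 for the neutrophil, -0.13 for the tumour epithelium and -0.50 for the fibroblast sum. The part of these cells in the levels of the members was not tested.

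For Cxcl10, the r with these sums was -0.11 for pan-leukocyte, 0.12 for macrophage and -0.27 for alveolar type 2 genes. It was -0.47 for alveolar type 1, -0.29 for tumour epithelium, -0.28 for neutrophil and 0.24 for endothelial genes, and between -0.25 and 0.17 for the other cell types listed. Genes that respond to tissue dissociation had mostly lower estimates alongside it. Of 16 such genes, 15 had lower estimates in Glut1-KO, with a median of -0.35, and 0 passed the test. The groups did not overlap for 4 of them, all lower in Glut1-KO (1.06% of all genes were). Atf3, a stress-induced transcription factor, measured 413, 212, 278, 322 and 327 CPM in Control and 179, 168, 177, 131 and 146 CPM in Glut1-KO libraries (log2 fold change -0.94, SE 0.17). Summed levels of the 16 genes ran from 7190 to 9060 CPM in Control and from 4480 to 7270 CPM in Glut1-KO libraries. Within groups, Cxcl10 had an r of -0.18 with that sum. The part of dissociation in the Cxcl10 difference was not tested.

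Upstream of the members, the 10 interferon ligands listed were barely detected, with 63 counts over all 10 libraries and none tested. The receptors were expressed. Of 7 receptor genes 6 were tested, from -0.20 (Ifngr1, SE 0.20) to 0.11 (Ifnar2, SE 0.28), and Ifnar1 differed by -0.03 (SE 0.17). The 9 genes of the JAK-STAT and IRF list ranged from -0.38 (Jak1, SE 0.20) to 0.49 (Irf8, SE 0.37), with 5 higher and 4 lower by estimate. Among 8 adaptors of nucleic acid sensing tested, Tmem173 (STING) had the highest estimate, 0.26 (SE 0.29), and Tbk1, the kinase downstream of it, the lowest, -0.16 (SE 0.12). Of the 5 brakes and regulators, Nlrc5, the activator of MHC class I genes, was at 0.77 (SE 0.63).

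Further interferon-induced genes outside the 46 had mostly higher estimates in Glut1-KO. Of 45 tested, 36 were higher and 9 lower, with a median of 0.17, and 0 passed the test. Among all 15922 genes tested, 7849 were higher and 8073 lower. These genes were measured in the same 10 libraries, so their directions are not independent of each other. With sex as a covariate, 14 were higher and 31 lower, with a median of -0.12. Slfn5, a Schlafen family gene, had the highest estimate. It measured 7.31, 2.26, 13.2, 6.03 and 4.56 CPM in Control and 14.2, 22.2, 8.76, 6.07 and 5.43 CPM in Glut1-KO libraries (0.84, SE 0.51), the females again being above the males. Ifi204, a DNA-binding gene of the p200 family, had the lowest, with 10.8, 1.43, 8.40, 5.57 and 0.892 CPM against 2.46, 2.14, 0.696, 4.66 and 0.860 CPM (-1.07, SE 0.79). Over all 73 other pathway genes tested, 53 estimates were higher and 20 lower, with a median of 0.11. The groups overlapped for each of the 73, whereas 1.85% of all genes tested had groups that did not. In the 2 male Glut1-KO libraries against Control (the fit with sex as a covariate), 29 of the 73 were higher and 44 lower, with a median of -0.08.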

How the data were processed

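The authors prepared stranded mRNA libraries, aligned reads to mm10 and deposited raw read counts per gene for 10 libraries. The submitters' processing notes name bcl2fastq 2.17, cutadapt 1.4.2, HISAT2, featureCounts 1.4.4 and edgeR. The annotation and the use of strand in counting are not given in the sources used here. The deposited table with symbols equalled the single count files in 10 of 10 libraries. A deposited table of log2 values was not used.

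The counts were filtered (edgeR 4.0.16 filterByExpr, minimum count 10, minimum total 15), scaled by TMM, transformed with voom and fitted with limma 3.58.1 in R 4.3.3, and group was the sole model term. These tools follow the methods of the study, which give no model terms and used a TPM filter instead. Benjamini-Hochberg adjustment ran over 15922 genes (threshold 0.05), and the script was tested on simulated data. Depth was 35.3 to 49.8 M counts. Lengths came from GENCODE M21 and promoters from RefSeq. The values of 1 gene of the wider pathway are not reported here. The members and lists were chosen with earlier results of these data known. Values in each library are given for the chemokines, the transcription factors and, in each other role, the 2 members with the highest level per kb and the 2 with the largest absolute fold change. Alternatives covered DESeq2 1.42.0, edgeR's quasi-likelihood test, other filters and scaling, sex, name numbers, the replicate block and leaving out each library.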

Additional observations from a re-analysis of the deposited data

Results flagged for a closer look

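The level of each tested member, of Slc2a1 and the total count was examined in each group for a library whose gap to the next was large for the range of the group (Dixon's criterion for 5 libraries). Of 90 groups of values, 7 met it. Chance alone gives about 1 in 20 for independent, normally distributed values. The levels were on the unlogged CPM scale, and members correlated over the same libraries, so that rate may not hold here. Ifit3 measured 13.7 CPM in Control replicate 4 (others 1.32 to 3.51 CPM) and 9.69 CPM in Glut1-KO replicate 4 (others 1.25 to 2.99 CPM). Mx1 measured 59.5 CPM in the same Glut1-KO library (others 7.43 to 22.4 CPM). Ifitm3 measured 159 CPM in Control replicate 1 (others 10.6 to 34.5 CPM), and Oasl1 measured 12.7 CPM there (others 1.66 to 4.63 CPM). Usp18 measured 1.39 CPM in Control replicate 2 (others 6.87 to 9.06 CPM), the library with a total of 49.8 M counts (others 40.1 to 41.4 M).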

How the results depend on the processing

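Cxcl10 kept its direction under every alternative listed for it, with a log2 fold change of -2.0 to -1.68 when 1 library was left out at a time, -1.93 in male libraries alone, -1.81 for female Glut1-KO libraries and -1.78 with libraries of the same name number summed. It was listed for its lower level and its groups did not overlap, so subsets or sums of these libraries could not turn its sign. The number of genes called was 0 higher and 0 lower in the limma fit. It was 110 and 105 with DESeq2 (1 member, Cxcl10), 1 and 2 with sex as a covariate, 1 higher in male libraries only, 4 and 5 for female Glut1-KO against Control, and 2 lower with name numbers summed. Leaving out 1 library gave 0 higher and 0 to 1 lower, the 1 without Control replicate 3. Slc2a1 turned to 0.0613 with sex as a covariate and to 0.0604 in male libraries only. The median member was at -0.02, at -0.46 with sex as a covariate and between -0.31 and 0.21 without 1 library. Of 458 values of 23 named members, 445 moved by less than the spread between replicates, and the 13 that moved did so with sex as a covariate or in male libraries only. Of these, Gbp7 turned from 0.56 to -0.46, Xaf1 from 0.19 to -0.40, Ifih1 from 0.23 to -0.09 and Trim25 from 0.05 to -0.10 under both settings, which are the same contrast of 2 male Glut1-KO libraries with Control by design, while Irf9 went from -0.11 to -0.45, Socs1 from -0.76 to -1.57 and Irgm1 from -0.15 to -0.43 (male libraries only). Leaving out 1 library turned the sign of 20 of the 43 tested members, among them Ifitm3 (-0.38 without Control replicate 2, 0.63 without Control replicate 1), Ifi47 (-0.40 without Control replicate 2), Parp14 (-0.12 without Control replicate 2) and Rtp4 (0.15 without Glut1-KO replicate 5). Usp18 moved to -1.08 and Iigp1 to 0.06 without Control replicate 2. Over all such refits Iigp1 ran from 0.06 to 1.08 and Gbp7 from 0.25 to 0.84. Oasl1 ran from -1.52 to -0.82, Irf7 from -0.73 to -0.15 and Irf1 from -0.38 to -0.07. Control and Glut1-KO libraries with the same replicate number did not deviate together (r from -0.13 to 0.20). This replicate number is not the number in the library name. With the replicate block the median member was at -0.03, Cxcl10 at -1.85 and 0 members were called. The cause of these shifts was not tested. Cxcl9, Cxcl11 and the interferon ligands had too few counts to be tested.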
